A study of Mus musculus with 3 samples.

Results

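In the embryonic day 14.5 (E14.5) library of mouse female primordial germ cells, 2425 of 9075 cells (26.7%) scored highest on a set of 6 genes, Cdh15, Tbata, Dync1i1, Dlx3, Tacc2 and Batf3, and are called Cdh15-Dlx3 cells here. Each of 18 genes was z-scored over the E14.5 cells on the deposited values, the z-scores were averaged within 3 sets of 6 genes, and a cell was placed in the set of its highest mean. The other sets gave 3050 Rec8-Msx1 cells (33.6%; Msx1, Rec8, Ccnd1, Synpr, Sp5 and Matk) and 3600 Tppp-Fgf11 cells (39.7%; Tppp, Fgf11, Lypd4, Madd, Syt14 and Mtl5). The sets were built from these same cells, so levels of the 3 states are a description with no test, and the 18 scoring genes support nothing.

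The series held 19144 cells in 3 libraries, 1 each for E12.5, E14.5 and E16.5, of Oct4-EGFP-positive germ cells sorted from fetal ovaries of C57BL/6 mice. Oct4-EGFP is a reporter of Pou5f1, so the sort itself selected cells in which that reporter was on. How many animals each library pooled is not known from the labels. All 3 states come from the single E14.5 library, and stage cannot be told apart from library.

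Female germ cells leave mitotic proliferation and enter meiosis in the fetal ovary, while genes of the pluripotency network are turned down and genes of the meiotic chromosome axis, synapsis and recombination are turned on. STRA8, induced by retinoic acid and BMP signals, acts with MEIOSIN as a transcription factor of meiotic entry. Within an ovary the transition is not synchronous, so cells of 1 day can stand at different points of it.

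The genes that chose the cells are known from other settings. Cdh15 encodes M-cadherin, an adhesion protein of muscle, Dlx3 a homeobox factor, Dync1i1 an intermediate chain of dynein, Tacc2 a centrosomal coiled-coil protein and Batf3 a leucine-zipper factor. Summed UMIs (unique molecular identifiers, which count RNA molecules) of each state were scaled to counts per 1000000 (CPM). Dlx3 had 23.3 CPM in Cdh15-Dlx3 cells, against 8.94 CPM in Rec8-Msx1 cells and 1.54 CPM in Tppp-Fgf11 cells, and Cdh15 had 17.4 CPM in Cdh15-Dlx3, 3.45 CPM in Rec8-Msx1 and 0.646 CPM in Tppp-Fgf11 cells. A UMI of Tacc2, the most widely found of the 6, was in 38.7% of Cdh15-Dlx3 cells, and one of Tbata, the least, in 17.4%. In the other libraries the 6 genes had between 0.231 CPM (Tbata) and 6.18 CPM (Dync1i1) at E12.5 and between 0.501 CPM (Tbata) and 3.38 CPM (Tacc2) at E16.5.

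**Figure D1:**
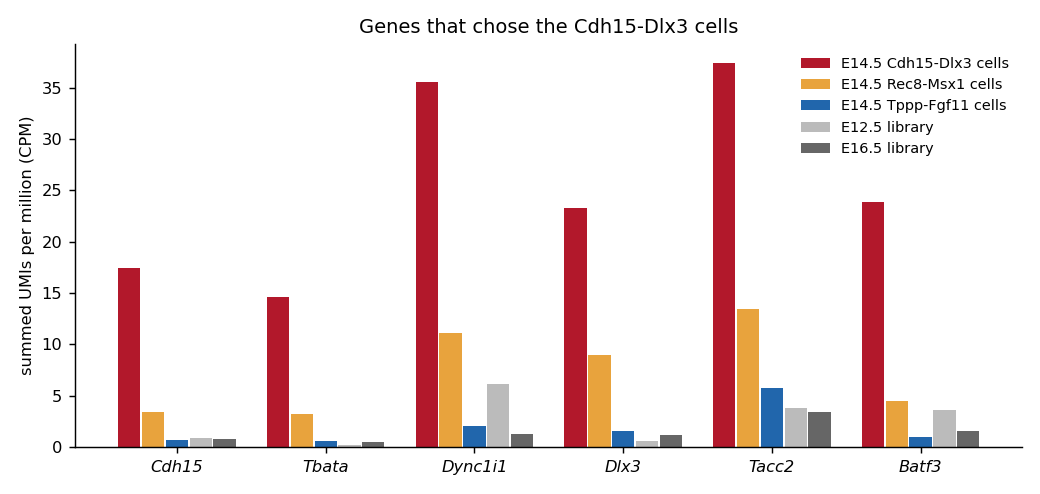
Levels in CPM (vertical axis, from 0) of the 6 genes that chose the Cdh15-Dlx3 cells, in the 3 E14.5 states and in the whole E12.5 and E16.5 libraries; bars are sums over cells with no replicate. Each gene is highest in Cdh15-Dlx3 cells, as the choice requires, and reaches at most 6.18 CPM (Dync1i1) in the other libraries.

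Because the 6 genes are sparse, the highest set does not always mean that they were found. No UMI of any of them was seen in 249 Cdh15-Dlx3 cells, 1 gene was found in 956, 2 genes in 807, 3 in 331, and 4 or more in 82. A cell with no UMI of any of the 18 scoring genes scores -0.33 on the Cdh15-Dlx3 set, against -0.69 on the Rec8-Msx1 set and -0.62 on the Tppp-Fgf11 set, so such a cell falls to the Cdh15-Dlx3 state, and all 64 of them at E14.5 did. The winning score was below 0 in 299 Cdh15-Dlx3 cells. Just inside the boundary, 186 cells led their next set by under 0.05 and had a median Cdh15-Dlx3 score of 0.0674, while 182 cells of the other states within 0.05 of it had a median of 0.109. Applied with the E14.5 means and SDs, the sets placed 4639 of 4706 E12.5 cells and 1921 of 5363 E16.5 cells highest on the Cdh15-Dlx3 set. With a score above 0 and at least 2 genes found, the share was 4.99% at E12.5, 13.4% at E14.5 and 0.876% at E16.5. The choice of the genes on E14.5 cells favours E14.5 as the highest. Median depth also differed, at 26691.5 UMIs at E12.5, 10960 at E14.5 and 12659 at E16.5, and its part was not tested.

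Cdh15-Dlx3 cells were the deepest of the 3 states, with a median of 12662 UMIs per cell, against 11682.5 in Rec8-Msx1 cells and 9530 in Tppp-Fgf11 cells. After each cell was thinned to 4000 UMIs, the median number of genes per cell was 1641 in Cdh15-Dlx3, 1677 in Rec8-Msx1 and 1663 in Tppp-Fgf11 cells. Before thinning it was 3362 in Cdh15-Dlx3, 3297 in Rec8-Msx1 and 2837 in Tppp-Fgf11 cells. All 16 germ cell markers listed were found in at least 10% of Cdh15-Dlx3 cells, with a summed level of 6142 CPM, against 7102 CPM in Rec8-Msx1 and 9351 CPM in Tppp-Fgf11 cells. Pregranulosa cells are the supporting cells around the germ cells, and their 19 markers in the table summed to 330.0 CPM in Cdh15-Dlx3, 354 CPM in Rec8-Msx1 and 108 CPM in Tppp-Fgf11 cells, with none at 0. At least 5 of these markers were found in 73 Cdh15-Dlx3, 83 Rec8-Msx1 and 10 Tppp-Fgf11 cells, and without those cells the sums were 203 CPM in Cdh15-Dlx3, 214 CPM in Rec8-Msx1 and 93.2 CPM in Tppp-Fgf11 cells. Most of each sum over all cells came from 1 listed gene, Cdkn1c. It had 201 CPM in Cdh15-Dlx3, 216 CPM in Rec8-Msx1 and 79.0 CPM in Tppp-Fgf11 cells. Only 2 of the 19 markers were found in at least 10% of Cdh15-Dlx3 cells. Of 4 blood and immune markers in the table, 2 were at 0 in each state. Scrublet marked 6 E14.5 cells as doublets (0.0661%, with the expected rate set at 6%). So few calls do not show that doublets were absent, and they may remain. Of the cell barcodes of the E14.5 library, 58 also occur at E12.5 and 72 at E16.5.

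Among 7913 genes of at least 10 CPM in 1 of the states, 154 (1.95%) were higher in Cdh15-Dlx3 than in Rec8-Msx1 cells by 1.5-fold or more, and 172 (2.17%) were lower. Against Tppp-Fgf11 cells, 2032 genes (25.7%) were at least 1.5-fold higher and 1848 (23.4%) lower. Taken against both states at once, 744 genes (9.40%) were at least 1.2-fold higher than in each, and 1239 (15.7%) at least 1.2-fold lower. The median log2 ratio over all 7913 genes was -0.06 over Rec8-Msx1 and -0.02 over Tppp-Fgf11 cells. Far fewer genes separated Cdh15-Dlx3 from Rec8-Msx1 than from Tppp-Fgf11 cells. When cells were scored after thinning to 4000 UMIs, only 50 genes passed as higher and 14 as lower than in Rec8-Msx1 cells, and 379 genes were lower than in both states.

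Among genes of pluripotency and early germ cells, nearly all measured were higher in Cdh15-Dlx3 than in Tppp-Fgf11 cells, and a part also passed over Rec8-Msx1 cells. On the list of 23 such genes, 8 exceeded Rec8-Msx1 cells by 1.5-fold or more and 0 were lower, with a median log2 ratio of 0.47, beside 1.95% of all genes. With scores from thinned cells 4 did, and the median was 0.28. Over Tppp-Fgf11 cells 22 were higher and 1, Tfcp2l1, was lower, with a median of 2.54, beside 25.7% and 23.4% of all genes. Pou5f1, the core pluripotency factor, had 256 CPM in Cdh15-Dlx3 cells, 177 CPM in Rec8-Msx1 cells and 55.4 CPM in Tppp-Fgf11 cells. Dppa3 (Stella), a maternal and germ cell protein that guards DNA methylation in the zygote, had 740.2 CPM in Cdh15-Dlx3, 467 CPM in Rec8-Msx1 and 104 CPM in Tppp-Fgf11 cells. The counting intervals of the 3 states did not overlap for either gene. Pou5f1 had 679 CPM at E12.5 and 18.9 CPM at E16.5, and Dppa3 had 1383 CPM at E12.5 and 43.6 CPM at E16.5.

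Several genes of this group stood further from Rec8-Msx1 cells than Pou5f1 did. Tcl1, which encodes a coactivator of the kinase AKT, was 2.63-fold higher (exact counting interval at 95%, 2.36 to 2.94) at 34.1 CPM in Cdh15-Dlx3 cells, against 13.0 CPM in Rec8-Msx1 and 2.56 CPM in Tppp-Fgf11 cells. Tfap2c, a transcription factor that specifies primordial germ cells, was 2.33-fold higher (2.07 to 2.62), with 26.7 CPM against 11.5 CPM in Rec8-Msx1 and 2.86 CPM in Tppp-Fgf11 cells. Dppa2, a chromatin factor of pluripotent cells, had 19.1 CPM in Cdh15-Dlx3 against 8.48 CPM in Rec8-Msx1 cells, and Tdh, threonine dehydrogenase, 68.1 against 33.7 CPM. Phlda2, an imprinted gene known for limiting placental growth, had 483 CPM in Cdh15-Dlx3, 236 CPM in Rec8-Msx1 and 26.6 CPM in Tppp-Fgf11 cells. Its log2 ratio over Tppp-Fgf11 cells was 4.18, and 2.96 with scores from thinned cells. Dnd1, an RNA-binding protein needed for germ cell survival, had 127 CPM in Cdh15-Dlx3, 72.4 CPM in Rec8-Msx1 and 8.76 CPM in Tppp-Fgf11 cells. Sox2, a partner of Pou5f1, had 52.1 CPM in Cdh15-Dlx3, 45.5 CPM in Rec8-Msx1 and 7.98 CPM in Tppp-Fgf11 cells, so it differed little between the 2 nearer states.

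The same order held in shares of cells at equal depth. After thinning to 4000 UMIs, a UMI of Dppa3 was found in 80.5% of Cdh15-Dlx3 cells (exact binomial 95% interval 78.9 to 82.1), 70.9% of Rec8-Msx1 cells (69.3 to 72.5) and 24.9% of Tppp-Fgf11 cells (23.5 to 26.4); unthinned shares were 90.4% in Cdh15-Dlx3, 90.0% in Rec8-Msx1 and 44.2% in Tppp-Fgf11 cells. In the 166 E14.5 cells with at least 5 pregranulosa markers, whose median depth was 8695 UMIs, the thinned share was 15.1%. A thinned share of Phlda2 was 63.0% in Cdh15-Dlx3, 43.9% in Rec8-Msx1 and 7.50% in Tppp-Fgf11 cells (unthinned 79.3% in Cdh15-Dlx3, 63.7% in Rec8-Msx1 and 14.5% in Tppp-Fgf11 cells). It was 11.4% (7.03 to 17.3) in the cells with pregranulosa markers, so the share in Tppp-Fgf11 cells may be background. The log2 ratio of Phlda2 over Tppp-Fgf11 cells is therefore not read as a size. Whether the cells with pregranulosa markers hold germ cell RNA of their own was not tested. All intervals given cover counting error only.

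Some genes of the mitotic cell cycle were also high. Of 29 G2 and mitosis genes, 9 were at least 1.5-fold higher than in Rec8-Msx1 cells and 0 lower (median log2 0.38), beside 1.95% of all genes higher, and 4 were higher with scores from thinned cells. Of 28 S-phase genes 0 were higher and 1, Gins2, was lower (median -0.13), which is near the shares of all genes. Cyclin B1 (Ccnb1), the activator of CDK1 at mitotic entry, had 127 CPM in Cdh15-Dlx3 cells, against 49.1 CPM in Rec8-Msx1 and 11.8 CPM in Tppp-Fgf11 cells, and was 2.59-fold higher than in Rec8-Msx1 cells (2.45 to 2.74). At equal depth a Ccnb1 UMI was in 28.0% of Cdh15-Dlx3, 11.8% of Rec8-Msx1 and 3.86% of Tppp-Fgf11 cells (unthinned 49.2% in Cdh15-Dlx3, 25.8% in Rec8-Msx1 and 8.06% in Tppp-Fgf11 cells). The thinned share was 4.22% in the cells with pregranulosa markers, near that of Tppp-Fgf11 cells. Those cells may hold Ccnb1 RNA of their own, so their share does not measure background. The part of background in Tppp-Fgf11 cells was not tested. The log2 ratio over Tppp-Fgf11 cells (3.43, and 2.54 with scores from thinned cells) is not read as a size. Plk1 and Aurka, kinases of mitosis, had 38.9 and 42.0 CPM in Cdh15-Dlx3 cells, against 20.1 and 22.3 CPM in Rec8-Msx1 cells, and Cdc20, the activator of the anaphase-promoting complex, 175 against 102 CPM.

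Not all mitosis genes shared this. Top2a, topoisomerase II alpha, had 246 CPM in Cdh15-Dlx3 cells, 298 CPM in Rec8-Msx1 and 404 CPM in Tppp-Fgf11 cells, and Bub1, a checkpoint kinase, had 72.6 CPM in Cdh15-Dlx3, 80 CPM in Rec8-Msx1 and 158 CPM in Tppp-Fgf11 cells. Against Tppp-Fgf11 cells the G2 and mitosis list split, with 15 of 29 genes higher and 3 lower. Of 28 S-phase genes, 14 were higher and 1 lower, beside 25.7% of all genes higher and 23.4% lower. Among alpha tubulins, Tuba1b had 731 CPM in Cdh15-Dlx3, 410.3 CPM in Rec8-Msx1 and 117 CPM in Tppp-Fgf11 cells, and Tuba1c had 30.3 CPM in Cdh15-Dlx3, 12.1 CPM in Rec8-Msx1 and 3.23 CPM in Tppp-Fgf11 cells. Tuba3a, a tubulin typical of testis, ran the other way with 371 CPM in Cdh15-Dlx3, 428 CPM in Rec8-Msx1 and 598 CPM in Tppp-Fgf11 cells. Tubulin genes are close copies, so reads may be shared among them.

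Cohesin holds sister chromatids together, and 5 of its subunits can be set side by side. Rad21, the kleisin subunit of mitotic cohesin, had 53.7 CPM in Cdh15-Dlx3 cells, against 25.6 CPM in Rec8-Msx1 and 15.6 CPM in Tppp-Fgf11 cells. Smc1b, the meiosis-specific SMC1 subunit, had 977 CPM in Cdh15-Dlx3 cells, 1312 CPM in Rec8-Msx1 and 2483 CPM in Tppp-Fgf11 cells, and Stag3, another meiotic subunit, had 112 CPM in Cdh15-Dlx3, 138 CPM in Rec8-Msx1 and 275 CPM in Tppp-Fgf11 cells. Smc1a, the general SMC1 subunit, had 73.4 CPM in Cdh15-Dlx3, 69.8 CPM in Rec8-Msx1 and 42.1 CPM in Tppp-Fgf11 cells, and Smc3, used by both forms, had 306 CPM in Cdh15-Dlx3, 319 CPM in Rec8-Msx1 and 444 CPM in Tppp-Fgf11 cells. Rec8, the meiotic kleisin, chose the Rec8-Msx1 cells and is not compared.

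Most measured meiotic genes were lower in Cdh15-Dlx3 than in Tppp-Fgf11 cells, and a minority were also lower than in Rec8-Msx1 cells. Of 15 genes of meiotic entry, 4 were at least 1.5-fold lower than in Rec8-Msx1 cells and 0 higher (median log2 -0.38); of 16 synaptonemal complex and cohesin genes 1 was lower, Tex12, and 1 higher, Rad21 (median -0.40); and of 28 recombination genes 7 were lower and 0 higher (median -0.41), beside 2.17% of all genes lower. With scores from thinned cells 0 genes of the 3 lists were lower than in Rec8-Msx1 cells, and the medians were -0.16, -0.16 and -0.20 in the order given. Against Tppp-Fgf11 cells 10 entry genes were lower and 1 higher (median -1.30), 12 synaptonemal complex and cohesin genes were lower and 3 higher (median -1.28), and 23 recombination genes were lower and 0 higher (median -1.74). Of all genes measured, 23.4% were lower and 25.7% higher than in Tppp-Fgf11 cells. Stra8 had 1086 CPM in Cdh15-Dlx3 cells, against 1751 CPM in Rec8-Msx1 and 1434 CPM in Tppp-Fgf11 cells, so that Rec8-Msx1 cells were highest and Cdh15-Dlx3 cells lowest. Stra8 was found in most cells of each state: at 4000 UMIs it was in 88.2% of Cdh15-Dlx3 cells (86.9 to 89.5), 96.2% of Rec8-Msx1 (95.5 to 96.8) and 93.3% of Tppp-Fgf11 cells (92.4 to 94.1). Unthinned shares were 95.6% in Cdh15-Dlx3, 98.0% in Rec8-Msx1 and 96.9% in Tppp-Fgf11 cells, and the thinned share in the cells with pregranulosa markers was 29.5%. Its level in the E12.5 library was 3.27 CPM.

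Sycp3, Meioc, Dmrtc2, Taf7l and Figla were each lowest in Cdh15-Dlx3, intermediate in Rec8-Msx1 and highest in Tppp-Fgf11 cells. Sycp3, a protein of the chromosome axis, had 315 CPM in Cdh15-Dlx3 cells, 453 CPM in Rec8-Msx1 and 1245 CPM in Tppp-Fgf11 cells. Meioc, which with YTHDC2 shuts down mitotic transcripts, had 62.1 CPM in Cdh15-Dlx3, 95.5 CPM in Rec8-Msx1 and 146 CPM in Tppp-Fgf11 cells. Within the entry list as scored here, Dmrtc2 and Taf7l were the widest apart from Rec8-Msx1 cells. They are germ cell transcription factors of the DMRT and TFIID families. Dmrtc2 had 85.3 CPM in Cdh15-Dlx3 against 147 CPM in Rec8-Msx1 cells, and Taf7l 139.9 against 230.2 CPM. With scores from thinned cells this ranking did not hold. The log2 ratio over Rec8-Msx1 cells was then -0.32 for Dmrtc2, -0.35 for Taf7l, -0.35 for Meioc, -0.49 for Stra8 and -0.21 for Sycp3. None of these passed 1.5-fold. Figla, the oocyte transcription factor that drives zona pellucida genes, had 46.0 CPM in Cdh15-Dlx3 cells, against 73.8 CPM in Rec8-Msx1 and 229 CPM in Tppp-Fgf11 cells.

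Prdm9 and Meiob stood far below Tppp-Fgf11 cells. Prdm9, the methyltransferase that marks recombination hotspots, had 23.8 CPM in Cdh15-Dlx3 cells and 28.0 CPM in Rec8-Msx1 cells, against 163 CPM in Tppp-Fgf11 cells. Meiob, a single-strand DNA binding protein of recombination, had 13.6 CPM in Cdh15-Dlx3, 14.6 CPM in Rec8-Msx1 and 88.1 CPM in Tppp-Fgf11 cells, and its counting interval over Rec8-Msx1 cells (0.820- to 1.06-fold) held 1. With scores from thinned cells, Prdm9 and Meiob were slightly higher than in Rec8-Msx1 cells (log2 0.22 and 0.29), so no direction is drawn between these 2 states. Gc, the vitamin D-binding protein, had 4.09 CPM in Cdh15-Dlx3, 2.36 CPM in Rec8-Msx1 and 28.3 CPM in Tppp-Fgf11 cells, and its log2 ratio over Rec8-Msx1 cells, 0.79, was -0.09 among cells with at least 2 genes of their own set.

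**Figure D2:**
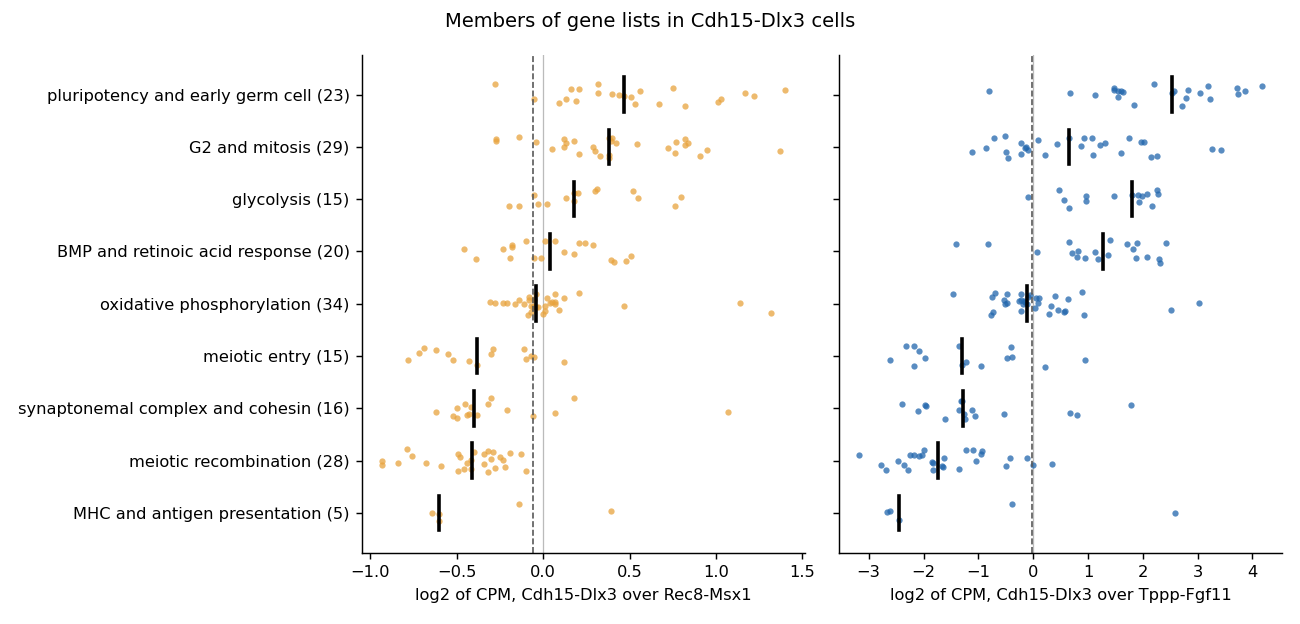
Each point is 1 measured member of a gene list (number in brackets), at its log2 ratio of CPM in Cdh15-Dlx3 over Rec8-Msx1 cells (left) or over Tppp-Fgf11 cells (right); black bars are list medians and dashed lines the medians of all 7913 genes (-0.06 and -0.02). Pluripotency genes lie to the right in both panels (medians 0.47 and 2.54) and meiotic recombination genes to the left (-0.41 and -1.74).

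The 8 genes furthest below Rec8-Msx1 cells included 4 of the X-linked Xlr family, relatives of Sycp3 that occur as near-identical copies, so reads may be split among them. Xlr5c had 13.0 CPM in Cdh15-Dlx3 cells, 26.7 CPM in Rec8-Msx1 and 16.8 CPM in Tppp-Fgf11 cells, 2.05-fold lower in Cdh15-Dlx3 than in Rec8-Msx1 cells. Xlr5a had 31.5 CPM in Cdh15-Dlx3, 58.2 CPM in Rec8-Msx1 and 65.6 CPM in Tppp-Fgf11 cells, and Xlr3c had 40.4 CPM in Cdh15-Dlx3, 71.6 CPM in Rec8-Msx1 and 53.6 CPM in Tppp-Fgf11 cells. The others were Xlr5b, Gab3, Cntd1, Dnajc5g and Tex16. Gab3, a docking protein of receptor signalling, had 15.1 CPM in Cdh15-Dlx3, 27.7 CPM in Rec8-Msx1 and 26.7 CPM in Tppp-Fgf11 cells, and Cntd1, a cyclin-like crossover factor, had 13.8 CPM in Cdh15-Dlx3, 24.9 CPM in Rec8-Msx1 and 33.1 CPM in Tppp-Fgf11 cells. Over all 290 X-linked genes measured, the median log2 ratio over Rec8-Msx1 cells was -0.20, with 2 higher and 29 lower. Over 7255 autosomal genes it was -0.06, with 149 higher and 132 lower. With scores from thinned cells only 14 genes in all were lower than in Rec8-Msx1 cells, so the 29 X-linked calls do not all hold. The log2 ratio was then -0.76 for Xlr5c and -0.65 for Gab3. For Xlr5a (-0.57) and Cntd1 (-0.43) it no longer passed 1.5-fold. Xist, the RNA that silences an X chromosome, had 29.3 CPM in Cdh15-Dlx3 cells, 28.4 CPM in Rec8-Msx1 and 3.34 CPM in Tppp-Fgf11 cells, but 1219 CPM in the 73 Cdh15-Dlx3 cells with at least 5 pregranulosa markers and 2.44 CPM in the other 2352. At equal depth Xist was found in 3.26% of Cdh15-Dlx3 cells and in 91.6% of the cells with those markers.

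Genes of antigen presentation were also low. H2-D1, a class I heavy chain, had 72.1 CPM in Cdh15-Dlx3 cells, 112 CPM in Rec8-Msx1 and 440.3 CPM in Tppp-Fgf11 cells, and H2-Ab1, a class II chain, had 25.3 CPM in Cdh15-Dlx3, 38.4 CPM in Rec8-Msx1 and 159.8 CPM in Tppp-Fgf11 cells. With scores from thinned cells the log2 ratio over Rec8-Msx1 cells was -0.17 for H2-D1, -0.19 for H2-K1 and 0.01 for H2-Ab1, so none of the 3 passed 1.5-fold. Class I genes are close copies of each other. As scored here, 3 of the 5 list members, the third being H2-K1, were at least 1.5-fold lower than in either state. Of all genes, 2.17% were lower than in Rec8-Msx1 and 23.4% than in Tppp-Fgf11 cells.

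Outside these groups, a pair of respiratory chain genes stood apart from the others in the comparison with Rec8-Msx1 cells. Cox7b, a subunit of cytochrome c oxidase encoded on the X chromosome, had 334 CPM in Cdh15-Dlx3 cells, against 134 CPM in Rec8-Msx1 and 41.2 CPM in Tppp-Fgf11 cells, 2.49-fold (2.41 to 2.58) and 8.12-fold (7.69 to 8.58) apart. With scores from thinned cells the log2 ratio of Cox7b was 0.84 over Rec8-Msx1 and 2.33 over Tppp-Fgf11 cells, against 1.32 and 3.02 as scored here. Cox8a had 462 CPM in Cdh15-Dlx3, 210.0 CPM in Rec8-Msx1 and 80.4 CPM in Tppp-Fgf11 cells. All but these 2 of 34 oxidative phosphorylation genes measured were within 1.5-fold of Rec8-Msx1 cells, and the list's median log2 ratio was -0.04. Cox4i1, of the same enzyme, had 2196 CPM in Cdh15-Dlx3, 2277 CPM in Rec8-Msx1 and 2288 CPM in Tppp-Fgf11 cells. Against Tppp-Fgf11 cells the pair was not alone, with 5 of the 34 genes higher and 5 lower, beside 25.7% and 23.4% of all genes. Cox7b had 626 CPM at E12.5 and 59.4 CPM at E16.5, and Cox8a had 1065 CPM at E12.5 and 80.9 CPM at E16.5.

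Glycolytic enzymes were set apart chiefly from Tppp-Fgf11 cells, with 12 of 15 genes higher and 0 lower (median log2 1.80). The shares of all genes were 25.7% higher and 23.4% lower. Only Pgam1 and Eno1 passed 1.5-fold over Rec8-Msx1 cells, beside 1.95% of all genes, and 0 did with scores from thinned cells. Eno1, enolase 1, had 58.4 CPM in Cdh15-Dlx3, 34.6 CPM in Rec8-Msx1 and 12.1 CPM in Tppp-Fgf11 cells, and Aldoa, aldolase A, had 258 CPM in Cdh15-Dlx3, 209 CPM in Rec8-Msx1 and 65.6 CPM in Tppp-Fgf11 cells. Trp53, the gene of the checkpoint factor p53, had 55.4 CPM in Cdh15-Dlx3, 27.7 CPM in Rec8-Msx1 and 5.79 CPM in Tppp-Fgf11 cells. Of the known p53 targets, Cdkn1a had 72.6 CPM in Cdh15-Dlx3, 54.8 CPM in Rec8-Msx1 and 7.75 CPM in Tppp-Fgf11 cells, and Bbc3, a death-promoting BCL2 relative, had 15.0 CPM in Cdh15-Dlx3, 12.6 CPM in Rec8-Msx1 and 1.35 CPM in Tppp-Fgf11 cells. Of 15 apoptosis and DNA damage checkpoint genes, 1 was higher than in Rec8-Msx1 cells and 0 lower, beside 1.95% and 2.17% of all genes. The list's median log2 ratio was 0.08, and -0.08 at the lowest alternative. Against Tppp-Fgf11 cells 7 were higher and 2 lower. Atr ran the other way, with 78.5 CPM in Cdh15-Dlx3, 99.5 CPM in Rec8-Msx1 and 232 CPM in Tppp-Fgf11 cells. The activity of p53 was not tested.

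Of 20 genes of the BMP and retinoic acid response, 17 were at least 1.5-fold higher in Cdh15-Dlx3 than in Tppp-Fgf11 cells and 2 lower, beside 25.7% and 23.4% of all genes. Over Rec8-Msx1 cells 0 passed either way (median log2 0.04, and -0.01 where the score left out Dync1i1 or Dlx3), a count that the shares of all genes, 1.95% and 2.17%, would also give. Id3, an inhibitor of basic helix-loop-helix factors induced by BMP, had 581 CPM in Cdh15-Dlx3 cells, 799 CPM in Rec8-Msx1 and 355 CPM in Tppp-Fgf11 cells, and Id1 had 289 CPM in Cdh15-Dlx3, 379 CPM in Rec8-Msx1 and 165 CPM in Tppp-Fgf11 cells. Rhox9, a homeobox gene of the X-linked Rhox cluster, had 601 CPM in Cdh15-Dlx3, 421 CPM in Rec8-Msx1 and 182 CPM in Tppp-Fgf11 cells, while its neighbour Rhox1 had 114 CPM in Cdh15-Dlx3, 154 CPM in Rec8-Msx1 and 138 CPM in Tppp-Fgf11 cells. Immediate-early genes were partly those of the cells with pregranulosa markers: Fos had 39.4 CPM in all Cdh15-Dlx3 cells, 11.6 CPM without the 73 and 1269.9 CPM in them.

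Most genes that differed between the earlier and later libraries followed 1 order over the 3 states. Genes were sorted by their ratio between the E16.5 and E12.5 libraries, whose cells took no part in the choice. The choice itself carries stage, however. Each Tppp-Fgf11 scoring gene was higher at E16.5 than at E12.5, such as Lypd4 (63.2 against 0.0159 CPM) and Mtl5 (115 against 2.16 CPM). A cell with none of the scoring genes falls to the Cdh15-Dlx3 set. How much of the order below follows from the choice was not tested. Of 664 genes at least 4-fold lower at E16.5, 580 (87.3%) were in the order Cdh15-Dlx3 above Rec8-Msx1 above Tppp-Fgf11, with median log2 ratios of 0.29 over Rec8-Msx1 and 1.67 over Tppp-Fgf11 cells. Of 1093 genes at least 4-fold higher at E16.5, 904 (82.7%) were in the reverse order, with medians of -0.34 and -1.11. Over all genes measured these orders held for 30.0% and 37.7%. Among the 744 genes higher in Cdh15-Dlx3 cells than in both states, 551 (74.1%) were at least 2-fold lower at E16.5 than at E12.5, against 19.4% of all genes, and among the 1239 lower ones 1016 (82.0%) were at least 2-fold higher, against 30.8%.

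**Figure D3:**
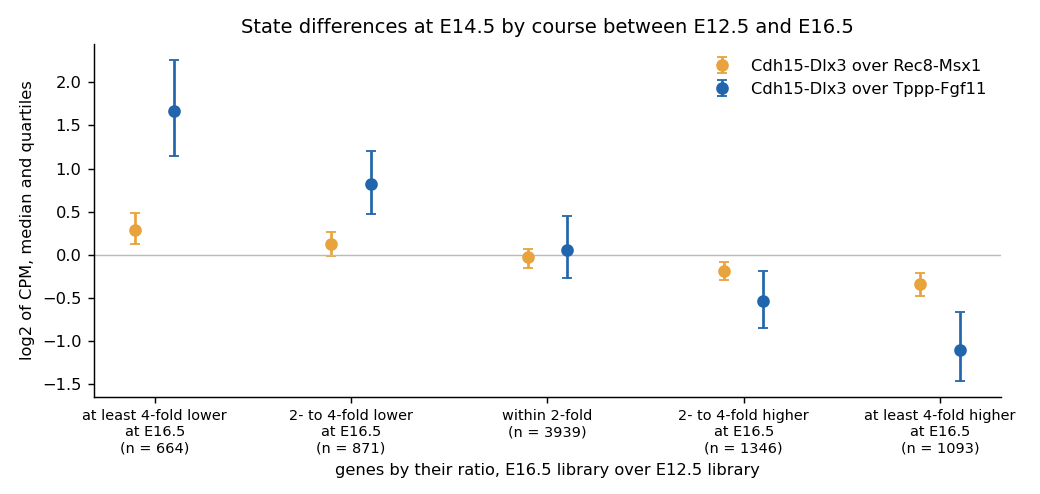
Median log2 ratio of CPM (vertical axis; whiskers are quartiles over genes, not an error of measurement) of Cdh15-Dlx3 over Rec8-Msx1 and over Tppp-Fgf11 cells, for genes grouped by their ratio of E16.5 over E12.5. The medians descend from 0.29 and 1.67 for genes at least 4-fold lower at E16.5 to -0.34 and -1.11 for genes at least 4-fold higher.

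A smaller number of genes departed from the E12.5 pattern. Besides the scoring genes, 46 of the 744 higher genes were at least 1.5-fold above both other libraries, a share (6.18%) like that of all genes measured (6.23%). Cdx2, a homeobox gene of trophectoderm and the posterior body axis, had 50 CPM in Cdh15-Dlx3 cells, 30.6 CPM in Rec8-Msx1 and 2.02 CPM in Tppp-Fgf11 cells, with 18.4 CPM at E12.5 and 1.85 CPM at E16.5. Its log2 ratio over Tppp-Fgf11 cells was 4.63, and 3.0 with scores from thinned cells. At equal depth Cdx2 was found in 15.4% of Cdh15-Dlx3, 9.18% of Rec8-Msx1 and 0.556% of Tppp-Fgf11 cells (unthinned 38.0% in Cdh15-Dlx3, 24.1% in Rec8-Msx1 and 1.67% in Tppp-Fgf11 cells). The thinned share was 2.41% (0.660 to 6.05) in the cells with pregranulosa markers. The share in Tppp-Fgf11 cells may therefore be background, and the log2 ratio of Cdx2 over them is not read as a size. Kcnip3, a calcium-binding partner of potassium channels, had 21.3 CPM in Cdh15-Dlx3, 15.8 CPM in Rec8-Msx1 and 3.85 CPM in Tppp-Fgf11 cells, with 5.11 CPM at E12.5 and 1.07 CPM at E16.5. Hes1, a repressor induced by Notch signals, had 35.4 CPM in Cdh15-Dlx3, 23 CPM in Rec8-Msx1 and 3.62 CPM in Tppp-Fgf11 cells, with 21.9 CPM at E12.5 and 21.5 CPM at E16.5, and its sign over Rec8-Msx1 cells depended on how cells were assigned. Kcnip3 and Hes1 were picked for this pattern after their values were seen. Calcoco2, known in humans as an autophagy receptor, had 24.8 CPM in Cdh15-Dlx3, 9.32 CPM in Rec8-Msx1 and 1.60 CPM in Tppp-Fgf11 cells and 37.8 CPM at E12.5.

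Cdh15-Dlx3 cells were split by the 2 scores they did not lead on, a description only, since genes that differ between those sets follow the split by construction. For 1877 of them the second-highest set was Rec8-Msx1 and for 548 Tppp-Fgf11. The 548 cells had 622 CPM of Sycp3, against 240.3 CPM in the 1877, and 62.1 against 14.5 CPM of Prdm9, with 487 against 802 CPM of Dppa3. Median depth was 10465 UMIs in the 548 cells and 13190 in the 1877. Xist was 74.9 CPM in the 548 and 18.2 CPM in the 1877, and Fos 107 against 22.8 CPM, as in cells with pregranulosa markers. The part of depth and of those cells in these values was not tested. In 5 equal bins of the difference between the Rec8-Msx1 and Tppp-Fgf11 scores, Sycp3 was between 219 and 232 CPM in the 3 bins nearest to Rec8-Msx1 and was 323 and 627 CPM in the others. Ccnb1 was highest in the middle, at 142, 154 and 161 CPM, with 81.1 CPM in the bin nearest to Rec8-Msx1 and 91.5 CPM in the bin nearest to Tppp-Fgf11. Stra8 ran opposite to Ccnb1, with 1312 CPM in the bin nearest to Rec8-Msx1, 948 CPM in the bin next to the last and 1089 CPM in the bin nearest to Tppp-Fgf11.

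**Figure D4:**
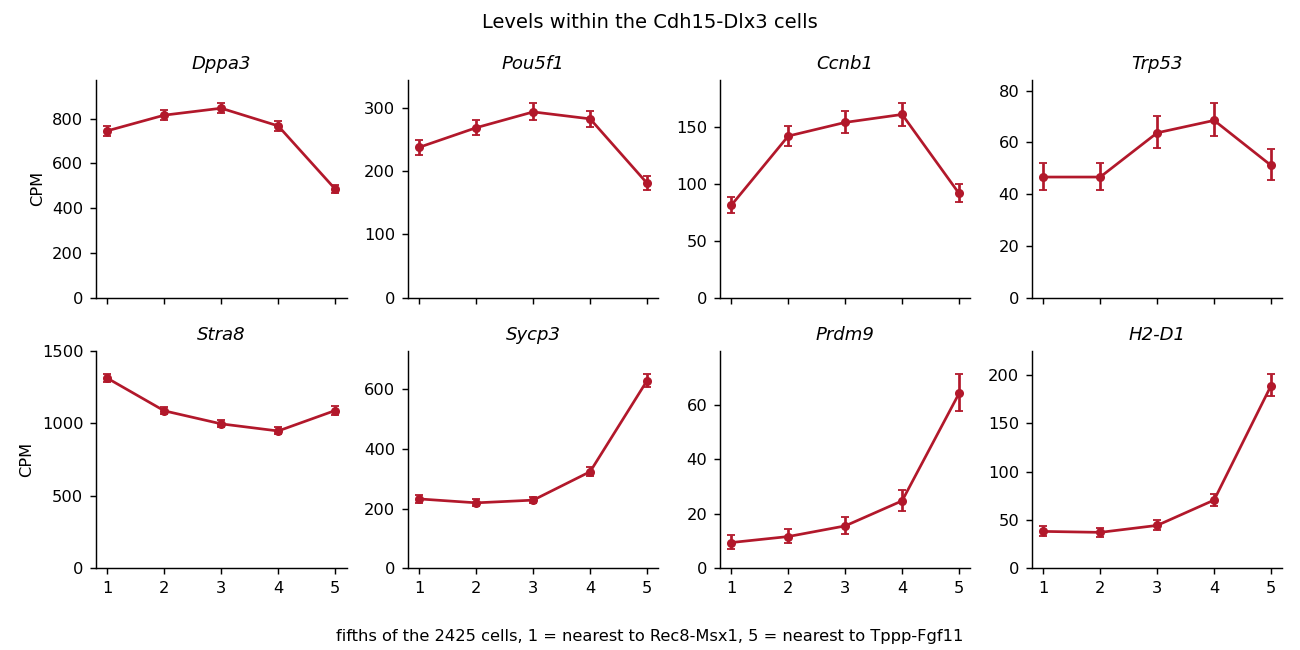
Levels in CPM (vertical axes, from 0, each gene on its own scale) of 8 genes in 5 equal bins of the 2425 Cdh15-Dlx3 cells by Rec8-Msx1 score minus Tppp-Fgf11 score; bars are exact Poisson 95% intervals of the summed UMIs. Sycp3, Prdm9 and H2-D1 are highest in the bin nearest to Tppp-Fgf11 (627, 64.2 and 189 CPM), and Ccnb1 is highest in the bin next to it (161 CPM). Bins run from the one nearest to Rec8-Msx1, numbered 1, to the one nearest to Tppp-Fgf11, numbered 5.

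The cells without any of the 6 genes differed from the rest of the state. With 0 genes found, 249 cells had 704 CPM of Stra8, 574 CPM of Sycp3 and 159.7 CPM of Xist at a median of 9495 UMIs. With 3 genes found, 331 cells had 1045 CPM of Stra8, 202 CPM of Sycp3 and 0.809 CPM of Xist at a median of 14280 UMIs. Fos was 198 CPM with 0 genes found and 6.88 CPM with 3. The 73 Cdh15-Dlx3 cells with at least 5 pregranulosa markers had 262 CPM of Stra8, 1219 CPM of Xist and 1269.9 CPM of Fos. Cells with 0 genes found enter the state only where their other 2 scores are lower still. The part of depth, of this choice and of cells with pregranulosa markers in these values was not tested. Over all groups by genes found, Pou5f1 was between 237 and 276 CPM and Ccnb1 between 119 and 151 CPM. Cdx2 had 27.4 CPM with 0 genes found and 69.8 CPM with 3. Conversely, the 239 Rec8-Msx1 cells with at least 2 of the 6 genes had 50.2 CPM of Cdx2 and 371 CPM of Phlda2, above the 20.6 and 183 CPM of the 1807 Rec8-Msx1 cells with none. Ccnb1 was 57.3 CPM in these 239 cells and 45.1 CPM in the 1807, both below every group of Cdh15-Dlx3 cells by genes found. The 239 cells also had a higher median depth (13404 against 11105 UMIs) and less Xist (4.73 against 44.3 CPM) than the 1807.

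Promoters of the genes that differed were compared for 3 short motifs on either strand, in windows of 250 bases before to 50 after each RefSeq start; 6207 of the 7913 genes had 7912 windows between them, since a gene may have several starts. CNCCTCAG, a motif linked to STRA8 and MEIOSIN binding in mice, was in 220 of 1261 windows (17.4%) of genes lower in Cdh15-Dlx3 cells than in both states, 35 of 698 (5.01%) of genes higher than in both, and 793 of 7912 (10.0%) of all. CACGTG, an E-box, was in 8.41% of windows of the lower, 12.3% of the higher and 10.7% of all genes, and TTTCGCGC, an E2F-type motif, in 0.476% of the lower, 1.00% of the higher and 0.834% of all. No motif contains another. A match is a description of letters and not a binding site.

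Windows of 3 lower genes that hold CNCCTCAG are printed with matches on either strand in capitals, 5′ to 3′ on the gene's strand (RefSeq, GRCm38.p6). Inca1, an inhibitor of cyclin A1 complexes (50.1 CPM in Cdh15-Dlx3, 65.0 CPM in Rec8-Msx1 and 308 CPM in Tppp-Fgf11 cells), lies on the minus strand at chr11:70700106-70700405. Gpat2, a mitochondrial acyltransferase family member of the piRNA pathway (111 CPM in Cdh15-Dlx3, 140.5 CPM in Rec8-Msx1 and 299 CPM in Tppp-Fgf11 cells), lies on the plus strand at chr2:127424949-127425248, and Figla on the plus strand at chr6:86016941-86017240. With scores from thinned cells Inca1 was not lower than in Rec8-Msx1 cells (log2 0.05).
Inca1: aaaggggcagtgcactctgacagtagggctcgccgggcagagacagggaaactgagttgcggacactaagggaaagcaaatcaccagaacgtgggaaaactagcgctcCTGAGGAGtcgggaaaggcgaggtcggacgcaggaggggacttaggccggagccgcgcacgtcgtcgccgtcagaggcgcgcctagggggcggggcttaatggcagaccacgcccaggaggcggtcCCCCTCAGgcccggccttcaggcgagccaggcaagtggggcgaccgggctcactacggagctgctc
Gpat2: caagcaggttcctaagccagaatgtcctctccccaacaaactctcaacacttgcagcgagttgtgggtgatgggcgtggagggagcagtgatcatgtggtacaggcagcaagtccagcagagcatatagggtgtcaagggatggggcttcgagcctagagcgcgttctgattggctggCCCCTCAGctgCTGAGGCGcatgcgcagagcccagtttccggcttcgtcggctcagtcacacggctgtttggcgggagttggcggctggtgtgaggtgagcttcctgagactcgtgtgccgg
Figla: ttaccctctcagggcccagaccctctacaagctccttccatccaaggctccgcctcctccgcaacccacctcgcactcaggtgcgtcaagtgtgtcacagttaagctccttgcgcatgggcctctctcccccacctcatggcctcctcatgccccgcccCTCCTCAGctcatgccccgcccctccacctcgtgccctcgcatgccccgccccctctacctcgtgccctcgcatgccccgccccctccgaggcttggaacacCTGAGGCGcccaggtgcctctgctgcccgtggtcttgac

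Windows of 2 higher genes, shown for contrast, hold none of the 3 motifs. Ccnb1 lies on the minus strand at chr13:100786437-100786736 and Tcl1 on the minus strand at chr12:105222688-105222987.
Ccnb1: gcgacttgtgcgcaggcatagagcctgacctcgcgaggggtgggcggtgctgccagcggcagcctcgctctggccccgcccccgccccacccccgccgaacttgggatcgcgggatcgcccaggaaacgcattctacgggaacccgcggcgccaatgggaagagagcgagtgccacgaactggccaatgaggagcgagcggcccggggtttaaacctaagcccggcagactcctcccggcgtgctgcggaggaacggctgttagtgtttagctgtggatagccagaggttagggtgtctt
Tcl1: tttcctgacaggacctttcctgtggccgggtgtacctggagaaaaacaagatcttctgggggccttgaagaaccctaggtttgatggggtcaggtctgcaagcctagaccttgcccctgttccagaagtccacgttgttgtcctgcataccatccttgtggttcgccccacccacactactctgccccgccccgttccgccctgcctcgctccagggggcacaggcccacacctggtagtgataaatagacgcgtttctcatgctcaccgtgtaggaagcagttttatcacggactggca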

How the data were processed

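Single-cell RNA of Oct4-EGFP-positive germ cells was measured with 10x Chromium in 3 libraries. Per the submitters' processing notes, reads were handled with FastQC and Cell Ranger 2.0.0 on mm10, whose base assembly is GRCm38. The deposited values are on a natural log scale, ln(1 + UMIs × 10000 / total UMIs of the cell), as read from the values, and whole UMIs were recovered from them for every value within 0.01. Summed UMIs per state, 31796313 in Cdh15-Dlx3, 36810231 in Rec8-Msx1 and 35607581 in Tppp-Fgf11 cells, were scaled to 1000000 with no count model. The 18 scoring genes were left out of the genes measured, and so of every call and list count. Their own levels are given only to describe the choice.

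A gene was measured at 10 CPM or more in 1 of the 3 states and counted past 1.5-fold against 1 state or 1.2-fold against both. Levels have exact Poisson and ratios exact conditional binomial intervals at 95%, which cover counting error only. With 1 library per stage no test was made, since cells are not replicates. The members and the 37 gene lists were chosen with earlier results of these data known. Named genes are the 8 ranked genes of at least 20 CPM furthest from each state in each direction, the 8 furthest above and the 8 furthest below both states, in each list the 3 most abundant members and the one furthest from either state, and 9 genes of meiosis, pluripotency and germ cell identity. Other list members named, such as Plk1, Rad21, Sox2, Trp53 and Tuba3a, were chosen after their values were seen. In all, 19 alternatives were tried. Promoter windows are RefSeq's for GRCm38.p6. Calls by fold and the intervals were tried on simulated Poisson sums. These held no spread between cells and no choice by score, so they do not show how the intervals cover real sums. Python 3.11.15, numpy 2.4.6, scipy 1.17.1, scanpy 1.11.5 (Scrublet) and matplotlib 3.10.9 were used. Some ranked genes are not reported here.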

Additional observations from a re-analysis of the deposited data

How the results depend on the processing

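No paired analysis was possible because each stage is 1 library and the labels give no replicate numbers. The scoring genes are sparse, and scores from thinned cells chose partly different cells. Thinning itself removes UMIs of sparse genes, so the part of depth in this change was not tested. Over all 19 alternatives, genes at least 4-fold lower at E16.5 than at E12.5 kept a positive median log2 ratio over Rec8-Msx1 (0.16 to 0.36) and over Tppp-Fgf11 cells (1.34 to 1.92), and genes at least 4-fold higher kept a negative one (-0.48 to -0.17 and -1.29 to -0.83). Of the counts of genes and cells, 111 values stayed within 1.5 times the reported count and 22 did not, and the causes of the changes were not tested beyond what each setting leaves out.

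With no CPM minimum, the counts were 1020 higher and 767 lower than in Rec8-Msx1, 5041 higher and 2994 lower than in Tppp-Fgf11, and 2115 higher and 2040 lower than in both. With a minimum of 20 CPM, 92 were higher than in Rec8-Msx1, 1319 than in Tppp-Fgf11 and 471 than in both. The mean of per-cell CPM gave 100 lower than in Rec8-Msx1. Cells leading by at least 0.25 gave 290 higher and 482 lower than in Rec8-Msx1. With at least 2 own genes and a score above 0, 1220 cells remained and 530 genes were lower than in Rec8-Msx1. A score without Dync1i1 gave 94 lower. Scores from thinned cells gave 50 higher and 14 lower than in Rec8-Msx1, and 375 higher and 379 lower than in both. Between the UMI quartiles, 1049 cells remained and 114 genes were lower than in Rec8-Msx1. Without the members second-highest on Tppp-Fgf11, chosen after seeing the data, 515 were lower. Thinned scoring shared 1534 members with the choice reported.

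The sign differed under some setting for 18 of 70 list medians and 40 of 296 named gene ratios, of which 1 median and 3 genes were past 1.5-fold as reported. The oocyte differentiation list's median over Tppp-Fgf11 was -0.61 and became 0.07 with no CPM minimum. Over Rec8-Msx1 cells, Gc (0.79) became -0.09 with at least 2 own genes and -0.33 without members second-highest on Tppp-Fgf11. Hes1 (0.62) became -1.09 and -0.16 under the same settings and -0.05 without members lacking all 6 genes. H2-Ab1 (-0.60) became 0.01 with thinned scores.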
